A study of Rattus norvegicus with 6 samples.

Results

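The genes described here break down heme and move, store or use the iron it releases. The list held 10 genes: Hmox1, Blvra, Blvrb, Slc40a1, Slc11a1, Slc11a2, Tfrc, Fth1, Ftl1 and Alas2. They were taken by gene symbol, and the rule that lists them uses no measured value. Of the 30957 genes of the mRNA table, 9 carried one of these symbols. Slc40a1, the iron exporter ferroportin, was not analysed here. All 9 genes passed the filter on low counts, together with 15195 genes in all.

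Sciatic nerve RNA came from 1-month-old Sprague-Dawley rats in 3 groups with 2 libraries each, named a and b, and the study's methods state that 2 rats were drawn from each group. The D4 and D7 groups were taken 4 and 7 days after the left sciatic nerve had been clamped with forceps and released. Rats of the control group are labelled as normal controls, and the methods add that their nerve was exposed in the same operation but not clamped. Ribosomal RNA was removed before sequencing, and mRNA and long noncoding RNA (lncRNA) were quantified from the same libraries. The mRNA counts summed to between 18727255 and 25350886 per library, and the lncRNA counts to between 2694777 and 3043817.

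Macrophages that clear red cells and cell debris take up large amounts of heme. Heme oxygenase opens the heme ring and yields biliverdin, carbon monoxide and iron, and biliverdin reductases turn biliverdin into bilirubin. The iron is carried out of the phagosome or endosome by the transporters Slc11a1 and Slc11a2, stored in ferritin shells built of heavy and light chains, or exported by ferroportin. Ferritin and transferrin receptor messages carry iron-responsive elements, short hairpins to which the iron regulatory proteins bind when iron is scarce. After a crush, the distal nerve loses its axons, Schwann cells give up their myelin program, and macrophages enter.

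Levels within a group are given as normalized CPM, which are counts scaled by the library total and a TMM factor to the same depth in every library. A gene was called up- or downregulated when edgeR's quasi-likelihood test gave a Benjamini-Hochberg adjusted p below 0.05 over all genes tested and the fold change was at least 2. Log2 fold changes are given with their standard error. D4 and D7 were each compared with the same control libraries, so the results of the 2 days were not independent. In bulk nerve, fewer cells of a type and less RNA per cell cannot be told apart. D7 library a stood apart from D7 library b in its summed globin (70.0 against 465 CPM) and adipocyte transcripts (32.7 against 948 CPM).

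One set of sequences concerns ferritin light chain loci other than Ftl1. Besides Ftl1, the mRNA table held other loci described as ferritin light chain, 9 in all with Ftl1. RefSeq (GRCr8, a later build than the Rnor_6.0 of the tables) gave a start-site window for 3 of these loci, and Ftl1 was not among them. The loop of the iron-responsive element begins with CAGTG, and this motif was searched on the transcribed strand in the 50 bases after the start. It was found at 2 of the 3 loci, Ftl1l1 (chrX:136687587-136687616, minus strand, bases 18 to 47 of the transcript) and LOC100360087 (chr5:151606516-151606545, plus strand, bases 21 to 50). The 30 bases that end with the motif are shown because they are letter for letter the same at these loci, with the loop letters in capitals.
Ftl1l1: cccgaggatctgtatcttgcttcaaCAGTG
LOC100360087: cccgaggatctgtatcttgcttcaaCAGTG
Of all 33469 start-site windows, 7.39% held CAGTG in those 50 bases, and 3 windows held the whole 30-base run. A match to these letters is a description of the sequence and no measurement of binding. It does not show how reads were assigned to Ftl1.

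Across the list, 3 of 9 genes were upregulated in the control vs D4 group (Hmox1, Slc11a1 and Ftl1) and 0 were downregulated. Among all genes tested, 11.2% were upregulated and 10.7% downregulated at D4. No downregulated gene was found on the list by edgeR's exact test or DESeq2 either, and 5 of the 9 genes had an unadjusted p below 0.05, beside 53.2% of all genes. In the control vs D7 group 2 genes were upregulated (Hmox1 and Ftl1) and 2 downregulated (Fth1 and Alas2), beside 9.83% and 9.02% of all genes. With the adjusted p alone and no fold limit, 5 of 9 genes passed at D4 and 5 of 9 at D7, beside 44.2% and 37.5% of all genes. The median log2 fold change of the 9 genes was 0.24 at D4 and -0.05 at D7, beside -0.04 and 0.01 over all genes. Between D7 and D4, 0 of 9 genes passed, beside 2.18% of all genes. There 4 genes had an unadjusted p below 0.05, beside 24.7% of all genes. DESeq2 and the exact test each called the same 3 genes, Alas2, Hmox1 and Slc11a1, beside 2.56% and 4.15% of all genes.

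**Figure D1:**
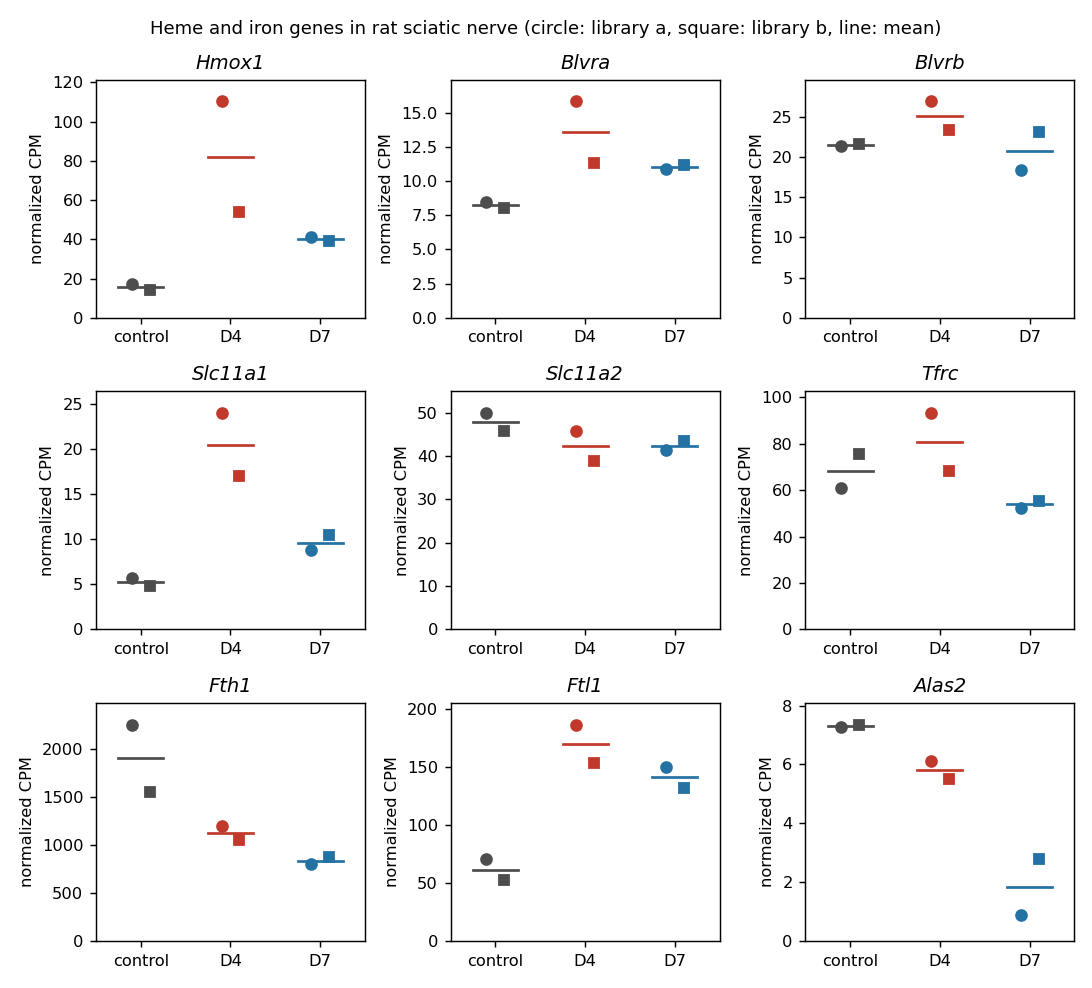
Normalized CPM (vertical axes, each from 0) of the 9 genes in the control, D4 and D7 groups, with a circle for library a, a square for library b and a line for the mean of the 2 libraries. Hmox1, Slc11a1 and Ftl1 are above both control libraries in both D4 libraries, Fth1 and Alas2 are lowest at D7, and Slc11a2 stays between 38.9 and 49.96 CPM in all libraries.

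Hmox1 (ENSRNOG00000014117, chromosome 19, 14508616 to 14515456 in Rnor_6.0) encodes the inducible heme oxygenase. Its level was 17.2 and 14.1 CPM in the control libraries, 110 and 53.9 CPM at D4, and 41.1 and 39.1 CPM at D7. All injured libraries lay above both control libraries, and the D4 libraries lay farther apart than those of the control or D7 group. Hmox1 was upregulated 5.23-fold at D4 (log2 fold change 2.39 ± 0.34, adjusted p = 0.0026) and 2.56-fold at D7 (1.36 ± 0.33, adjusted p = 0.023). Without D4 library a the log2 fold change at D4 was 1.78 and remained past the threshold. The D7 call was lost when either control library or either D7 library was left out, with adjusted p-values from 0.057 to 0.094 and log2 fold changes from 1.22 to 1.51. Between D7 and D4 the log2 difference was -1.03 ± 0.32 (adjusted p = 0.12).

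Hmox2, the constitutive heme oxygenase, showed no such difference. Its level was 39.7 and 43.8 CPM in control, 40.9 and 36.3 CPM at D4, and 40.4 and 32.5 CPM at D7, and its log2 fold changes were -0.11 ± 0.14 and -0.20 ± 0.14. In the control libraries the CPM of Hmox2 was thus above that of Hmox1 and at D4 below it, although CPM values do not correct for the length of the 2 transcripts. The deposited FPKM, which divide by transcript length, had the same order. In control Hmox2 was at 17.6 and 19.9 FPKM and Hmox1 at 9.48 and 7.97, and at D4 Hmox2 was at 22.4 and 19.9 and Hmox1 at 75.1 and 36.8.

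Biliverdin reductase A (Blvra), which reduces the product of heme oxygenase, was at 8.45 and 8.02 CPM in control, 15.8 and 11.3 CPM at D4, and 10.9 and 11.2 CPM at D7. The injured libraries were all above the controls, but the log2 fold change of 0.72 ± 0.20 at D4 (adjusted p = 0.029) was below 2-fold, and that of 0.42 ± 0.20 at D7 had an adjusted p of 0.14. Blvrb, the second reductase, overlapped between the control and D7 groups, with 21.4 and 21.6 CPM in control, 26.9 and 23.3 CPM at D4, and 18.4 and 23.2 CPM at D7. Its log2 fold changes were 0.22 ± 0.15 (adjusted p = 0.27) and -0.05 ± 0.15 (adjusted p = 0.81).

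Slc11a1 (ENSRNOG00000014956, chromosome 9, 81655629 to 81666706), the metal transporter of the macrophage phagosome, was at 5.72 and 4.76 CPM in control, 24.0 and 17.0 CPM at D4, and 8.78 and 10.4 CPM at D7. The 3 groups did not overlap. Slc11a1 was upregulated 3.89-fold at D4 (1.96 ± 0.23, adjusted p = 0.0013), while the log2 fold change of 0.87 ± 0.23 at D7 (adjusted p = 0.029) was below 2-fold. From D4 to D7 the log2 difference was -1.09 ± 0.22, with an adjusted p of 0.051. Slc11a2, the widely expressed transporter of the same family, which moves iron out of endosomes, was at 49.96 and 45.8 CPM in control, 45.9 and 38.9 CPM at D4, and 41.4 and 43.4 CPM at D7. Its log2 fold change was -0.18 ± 0.12 at both days (adjusted p = 0.25 and 0.27).

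Macrophage marker genes moved in the same comparisons as Hmox1 and Slc11a1. Their summed level (14 genes) was 632 and 561 CPM in control, 2420 and 2434 CPM at D4, and 1703 and 1976 CPM at D7. Of the 14 genes, 14 were upregulated at D4 and 13 at D7 (14 without D7 library a, 10 without D7 library b), beside 11.2% and 9.83% of all genes. Their median log2 fold changes were 2.08 and 1.53. The most abundant, Lyz2, Mrc1 and Csf1r, were upregulated by log2 fold changes of 2.26 ± 0.09, 1.59 ± 0.12 and 1.65 ± 0.16 at D4. The sums of D4 libraries a and b were close, but the single markers varied. Cd68 was at 107 and 71.7 CPM in these libraries, Lyz2 at 971 CPM in both, and Csf1r at 302 and 317 CPM. Hmox1 was at 110 and 53.9 CPM and Slc11a1 at 24.0 and 17.0 CPM in the same libraries. What part the macrophage markers had in the Hmox1 and Slc11a1 levels was not tested.

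Among the 9879 other genes with a mean of at least 10 CPM, the genes whose profile over the 6 libraries lay closest to that of Hmox1 were H2afz, Plau, Ctsz, Il10ra and Amdhd2. Closeness was the root mean square difference in log2 change from the control mean, and it ran from 0.26 for H2afz to 0.30 for Amdhd2. H2afz encodes a histone of the H2A family, Plau the urokinase plasminogen activator, and Ctsz the lysosomal protease cathepsin Z. Il10ra encodes a chain of the interleukin 10 receptor, and Amdhd2 a protein with an amidohydrolase domain. H2afz was at 6.54 and 5.31 CPM in control, 30.6 and 25.1 CPM at D4, and 16.6 and 18.9 CPM at D7. Ctsz was at 32.1 and 25.5 CPM in control, 133 and 121 CPM at D4, and 76.1 and 84.5 CPM at D7. This order is a description over 6 libraries of 3 groups and carries no test.

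**Figure D2:**
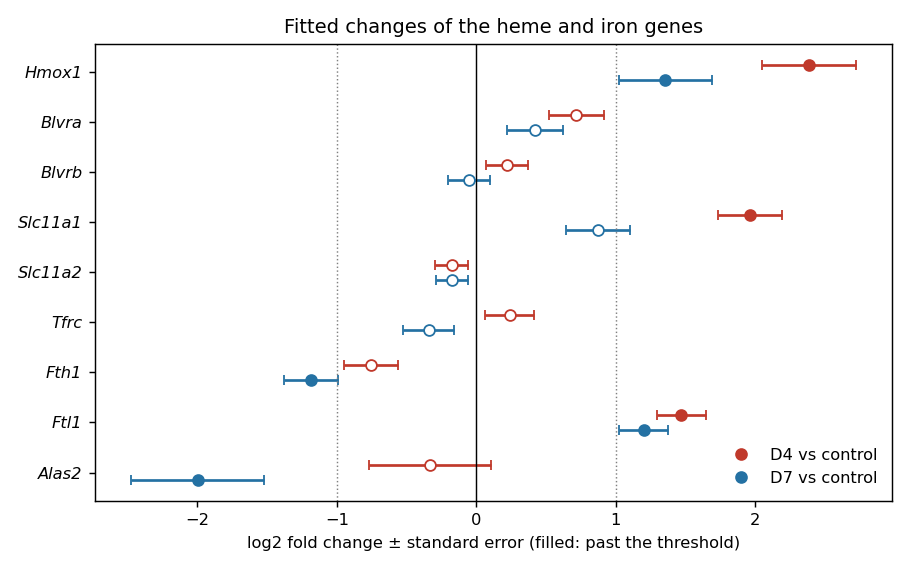
Log2 fold change (horizontal axis, with its standard error as bars) of the 9 genes at D4 (red) and D7 (blue) against control, where filled points were past the threshold and dotted lines mark a 2-fold change. Hmox1, Slc11a1 and Ftl1 lie to the right of the dotted line at D4, and Fth1 and Alas2 lie to the left of it at D7, at -1.18 and -2.00.

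Tfrc, the transferrin receptor through which most cells take up iron, did not pass the test at either day. Its level was 61.0 and 75.8 CPM in control, 93.3 and 68.1 CPM at D4, and 52.4 and 55.6 CPM at D7. The control and D4 libraries overlapped, and both D7 libraries were below the other 4. The log2 fold change was 0.24 ± 0.18 at D4 (adjusted p = 0.32) and -0.34 ± 0.18 at D7 (adjusted p = 0.18), and the log2 difference of D7 from D4 was -0.58 ± 0.18 (adjusted p = 0.12).

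The ferritin chains took opposite directions. Fth1 (ENSRNOG00000022619, chromosome 1, 226030938 to 226033228), the heavy chain with the ferroxidase activity, was by far the most abundant gene of the list, with 2254 and 1550 CPM in control, 1201 and 1053 CPM at D4, and 805 and 869 CPM at D7. The 3 groups did not overlap, although control library a was well above control library b. Fth1 was downregulated 2.27-fold at D7 (-1.18 ± 0.19, adjusted p = 0.0057), and its log2 fold change of -0.75 ± 0.19 at D4 (adjusted p = 0.022) was below 2-fold. The calls rested on control library a and b: without control library a the D7 value was -0.89 and no longer 2-fold, and without control library b the D4 value was -1.001 and just past the threshold.

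Ftl1 (ENSRNOG00000020843, chromosome 1, 101448346 to 101449829), the light chain that helps to form the iron core, was at 70.3 and 52.5 CPM in control, 187 and 154 CPM at D4, and 150 and 132 CPM at D7. Each injured library was above both control libraries. The gene was upregulated 2.77-fold at D4 (1.47 ± 0.18, adjusted p = 0.0014) and 2.30-fold at D7 (1.20 ± 0.17, adjusted p = 0.0038). These calls were kept whichever library was left out.

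Ftl1 held only a small share of the light chain counts. Of the counts over the 9 light chain loci, Ftl1 took between 9.23% (control library b) and 14.0% (D7 library b). LOC100360087 (chromosome 5, 152325871 to 152326778 in Rnor_6.0), one of the loci whose leader is printed above, took between 44.6% and 51.0%, and LOC100362384 between 29.5% and 33.1%. Reads that match several near-identical loci may have been divided among them by the counting, so the value of each light chain locus is uncertain. Of the other 8 loci, 6 passed the low-count filter and had log2 fold changes from 0.93 (LOC100360087) to 1.69 (RGD1566189) at D4 and from 0.57 (LOC100360087) to 1.15 (RGD1566189) at D7. At D4 5 of these 6 were upregulated, with LOC100360087 the exception, and at D7 2 were, RGD1566189 and Ftl1l1. Beside them, 11.2% (D4) and 9.83% (D7) of all genes were upregulated. As the loci may share reads, their calls may not be separate results. LOC100360087 was called at D4 without D4 library b (1.06) or control library a (1.03), and RGD1560687 at D7 without D7 library b (1.02) or control library a (1.15). Leaving out 1 library ended the D4 call of LOC100359668 (0.86 without D4 library a, 0.85 without control library b), LOC100362384 (0.87 without D4 library a) and RGD1566189 (adjusted p = 0.062 without D4 library a). At D7 the calls of RGD1566189 (adjusted p from 0.065 to 0.11, lost without each library but control library a) and Ftl1l1 (0.87 without control library b, 0.97 without D7 library a) ended likewise.

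With the 9 light chain loci summed to 1 feature, a step chosen after seeing the data, the light chain was at 644 and 569 CPM in control, 1422 and 1130 CPM at D4, and 1071 and 941 CPM at D7. The sum was upregulated at D4 (1.07 ± 0.15, adjusted p = 0.0025). At D7 its log2 fold change of 0.73 ± 0.15 (adjusted p = 0.013) was below 2-fold, so that the D7 call of Ftl1 alone did not extend to the sum.

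The ratio of heavy to light chain was taken from the deposited FPKM, which divide by transcript length. Fth1 stood at 21.3 and 19.6 times the FPKM of Ftl1 in control, 4.28 and 4.56 times at D4, and 3.56 and 4.37 times at D7. Against the summed light chain loci the ratio was 2.92 and 2.26 in control, 0.683 and 0.761 at D4, and 0.607 and 0.752 at D7. By either measure both control libraries lay above all 4 injured libraries, and the D4 and D7 ranges overlapped. Which side of 1 the ratio was on in the injured nerve depended on the loci counted. The ratio was described without a test.

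**Figure D3:**
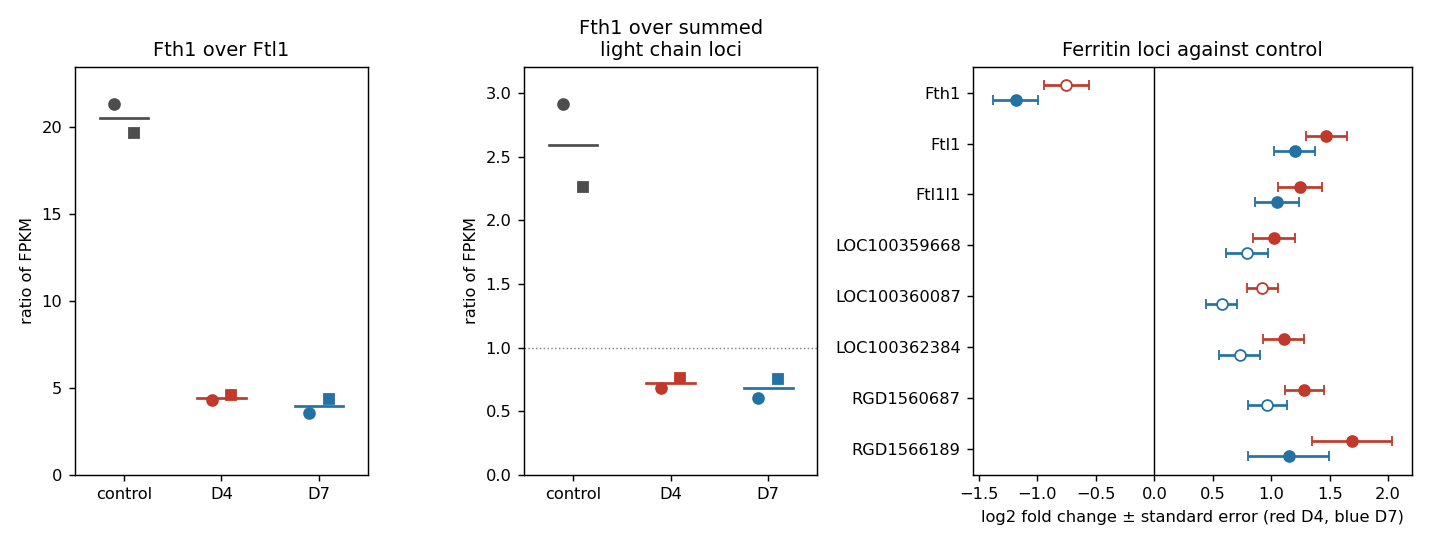
Left and middle, the ratio of Fth1 FPKM to the FPKM of Ftl1 and to the summed FPKM of the 9 light chain loci in each library (circle a, square b, line the group mean, dotted line a ratio of 1). Right, log2 fold changes with standard errors of Fth1, Ftl1 and the 6 other tested light chain loci at D4 (red) and D7 (blue), with filled points past the threshold. Fth1 lies to the left of 0 and all light chain loci to the right at both days.

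Ordered by FPKM in the control libraries, the genes ran from Fth1 (2343 and 1651) and Ftl1 (110 and 84.1) through Blvrb (16.2 and 16.8), Tfrc (11.003 and 14.0), Hmox1 (9.48 and 7.97), Slc11a2 (7.13 and 6.71), Blvra (6.57 and 6.40) and Alas2 (3.58 and 3.72) to Slc11a1 (1.11 and 0.945). At D4 Hmox1, at 75.1 and 36.8 FPKM, had passed Blvrb and Tfrc and came next after the ferritin chains. Slc11a1, at 5.73 and 4.06 FPKM, had passed Alas2, at 3.73 and 3.36 FPKM, while staying below the other genes of the list.

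Alas2 (ENSRNOG00000000167, chromosome X, 23167696 to 23187341), the first enzyme of heme synthesis in red cell precursors, was at 7.26 and 7.36 CPM in control, 6.12 and 5.50 CPM at D4, and 0.892 and 2.77 CPM at D7. The D7 libraries rested on 19 and 56 counts, against 141 and 122 counts in control. Alas2 was downregulated at D7 (-2.00 ± 0.48, adjusted p = 0.020), and at D4 its log2 fold change was -0.33 ± 0.44 (adjusted p = 0.57). The size of the D7 change depended on the D7 library, with -1.37 without D7 library a and -3.03 without D7 library b, both past the threshold. Without control library a or b the adjusted p was 0.052 or 0.054.

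Globin transcripts, which circulating red cells carry into the tissue, were low in the same libraries. Hba1, Hba2, Hbb and Hbb-b1 together were at 953 and 1074 CPM in control, 615 and 553 CPM at D4, and 70.0 and 465 CPM at D7. D7 library a was thus lowest for the globins and for Alas2. Of the erythroid marker list, 9 of 12 genes were tested. None of the 9 was upregulated, and 2 passed in the downward direction on each day, beside 10.7% (D4) and 9.02% (D7) of all genes. At D7 DESeq2 called 3 and the exact test 5, and 2 passed without D7 library a and 6 without D7 library b. The list summed to between 973 and 1088 CPM in control, 560 and 622 CPM at D4, and 74.9 and 472 CPM at D7. Gata1, which marks red cell precursors, was at 0 in every library. Klf1 and Ahsp of the same list were detected in every library, at 1 to 16 and 5 to 12 counts. Hba2 was downregulated at D7 (-2.35 ± 0.73, adjusted p = 0.048), and Hba1 and Hbb were at -1.83 ± 0.77 and -1.60 ± 0.78 without passing. Without D7 library a Hba2 was at -1.55 and still called, and Hba1 and Hbb were at -0.997 and -0.76. Without D7 library b the same genes were at -4.14, -3.81 and -3.61, all called. What part the amount of blood in the nerve had in the Alas2 level was not tested.

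Of the lncRNAs, 7 overlapped the span of a gene of the list, 1 at Blvra, 4 at Slc11a2, 1 at Ftl1 and 1 at Alas2, and 4 of them were tested. At D4 1 was called and at D7 0, beside 10.1% and 5.79% of all tested lncRNAs. At D7 2 had an unadjusted p below 0.05, beside 25.5% of all lncRNAs. DESeq2 called 2 and the exact test 1, beside 6.4% and 9.73% of all lncRNAs. NONRATT002642.2 (chromosome 1, 101449124 to 101450028) overlaps the part of Ftl1 at the higher coordinates. Its level was 809 and 459 CPM of the lncRNA counts in control, 2170 and 2161 CPM at D4, and 1577 and 1530 CPM at D7. It was upregulated at D4 (1.77 ± 0.27, adjusted p = 0.017) and was at 1.29 ± 0.26 at D7 (adjusted p = 0.051). The D4 call was lost without either D4 library (adjusted p = 0.092 and 0.096). NONRATT030938.2 (chromosome X, 23167566 to 23173044), at Alas2, was at 28.4 and 18.2 CPM in control, 22.5 and 22.2 CPM at D4, and 2.10 and 6.46 CPM at D7, with a log2 fold change of -2.44 ± 0.54 at D7 (adjusted p = 0.061), which was -1.85 without D7 library a and -3.44 without D7 library b. The strand of the counting is not given in the sources used here, so reads of these lncRNAs and of the genes they overlap cannot be told apart. At Slc11a2, NONRATT027319.2 had 8 counts in D4 library b and between 149 and 205 in the other 5 libraries, and did not pass at either day, but it was called downregulated at D4 (-4.84) when D4 library a was left out.

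**Figure D4:**
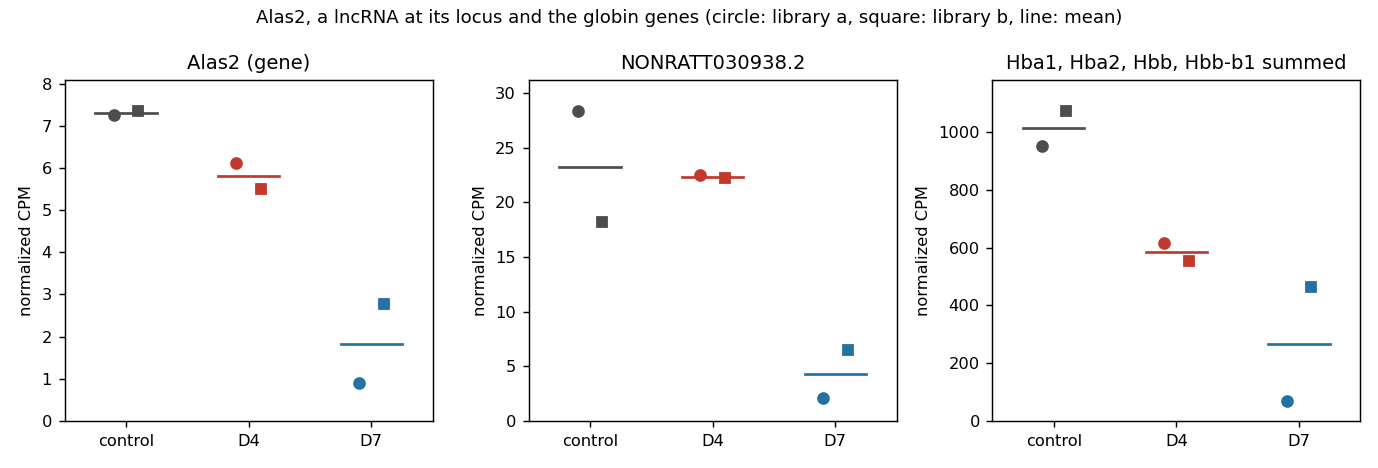
Normalized CPM (vertical axes, each from 0) of Alas2, of the lncRNA at its locus and of the summed globin genes in each library (circle a, square b, line the group mean). In all 3 panels D7 library a is lowest, at 0.892, 2.10 and 70.0 CPM.

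Other genes of heme and iron handling were followed in 6 lists with 71 genes, of which 62 were tested. At D4 6 were upregulated and 4 downregulated (9.68% and 6.45% of the 62, beside 11.2% and 10.7% of all genes). At D7 2 were upregulated and 6 downregulated (3.23% and 9.68%, beside 9.83% and 9.02%). Their median log2 fold changes were -0.07 and -0.17. Between D7 and D4 0 of 62 passed by edgeR's quasi-likelihood test, the exact test or DESeq2, and 19 had an unadjusted p below 0.05, beside 24.7% of all genes. With no fold limit 29 of 62 passed at D4 and 28 at D7, beside 44.2% and 37.5% of all genes.

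Heme synthesis genes gave no call. Of 12 genes, 0 passed at D4 or D7 by edgeR's quasi-likelihood test, its exact test or DESeq2. For scale, the quasi-likelihood calls at D4 took in 11.2% of all genes as higher and 10.7% as lower. The D7 calls took in 9.83% as higher and 9.02% as lower. An unadjusted p below 0.05 was found for 6 of the 12 at each day, beside 53.2% and 48.4% of all genes. The log2 fold changes lay between -0.86 and 0.83 at D4 and between -0.79 and 0.48 at D7.

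Among the 11 tested genes that scavenge or transport heme and hemoglobin, 3 passed at D4 (2 upward, 1 downward) and 2 at D7 (both downward). The shares over all genes were 11.2% upward and 10.7% downward at D4, and 9.83% and 9.02% at D7. Cd163, the macrophage receptor for hemoglobin bound to haptoglobin, was at 56.1 and 63.3 CPM in control, 156 and 180 CPM at D4, and 82.0 and 107 CPM at D7. It was upregulated 2.81-fold at D4 (1.49 ± 0.16, adjusted p = 0.00092) and was at 0.66 ± 0.16 at D7 (adjusted p = 0.020). Hebp1, a heme-binding protein, was upregulated at D4 (1.12 ± 0.23, adjusted p = 0.011), a call that ended without D4 library a (0.99). Abcg2, a transporter that exports porphyrins and is made by endothelial cells among others, was downregulated at both days (-2.15 ± 0.31 and -2.02 ± 0.31). Flvcr2, a member of a family of heme transporters, was downregulated at D7 (-1.23 ± 0.10). Hp (haptoglobin) and Hpx (hemopexin), the plasma proteins that bind hemoglobin and heme, were at 1.55 to 4.23 and 0.939 to 2.05 CPM, and neither passed.

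Iron uptake and transport gave 2 of 15 genes upregulated at each day, beside 11.2% (D4) and 9.83% (D7) of all genes. These were the metalloreductase family members Steap1 and Steap2. Downregulated were 0 at each day, beside 10.7% and 9.02% of all genes. Steap1 was at 0.258 and 0.241 CPM in control, 7.72 and 7.31 CPM at D4, and 2.30 and 5.20 CPM at D7 (4.88 ± 0.53 and 3.87 ± 0.53). Its D7 value was 4.37 without D7 library a and 3.17 without D7 library b, both past the threshold. Steap2 was at 6.08 and 7.72 CPM in control, 41.1 and 39.4 CPM at D4, and 31.6 and 31.1 CPM at D7 (2.55 ± 0.14 and 2.19 ± 0.14). Tf, the plasma iron carrier transferrin, was at 436 and 457 CPM in control and 244 and 316 CPM at D7 (-0.67 ± 0.14, adjusted p = 0.013, below 2-fold). Cp, the ferroxidase ceruloplasmin that works with ferroportin, was at 203 and 220 CPM in control and 326 and 346 CPM at D7 (0.67 ± 0.12, adjusted p = 0.0078, below 2-fold). Lcn2, which binds iron-carrying siderophores, was at -1.04 ± 0.41 and -1.20 ± 0.42 (adjusted p = 0.084 and 0.066), and was called at both days by DESeq2 and the exact test. Tfr2, the second transferrin receptor, was below 1 CPM in all libraries and did not pass.

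Of the 4 tested genes of iron storage and chaperones, 2 were upregulated and 0 downregulated at D4, beside 11.2% and 10.7% of all genes. At D7 0 passed, beside 9.83% upregulated and 9.02% downregulated among all genes. There 3 had an unadjusted p below 0.05, beside 48.4% of all genes, and DESeq2 and the exact test called 0. The 2 genes upregulated at D4 were Mon1a, a trafficking factor (1.11 ± 0.12), and Frrs1, a ferric reductase (1.03 ± 0.14). Frrs1 was below 2-fold without D4 library a (0.93) or control library a (0.90). Ncoa4, the receptor that delivers ferritin to the lysosome, was at 286 and 231 CPM in control, 173 and 164 CPM at D4, and 187 and 190 CPM at D7, with log2 fold changes of -0.62 ± 0.12 (adjusted p = 0.0087) and -0.46 ± 0.12 (adjusted p = 0.029), both below 2-fold.

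Among 7 tested genes of iron regulation, 0 were upregulated at either day, beside 11.2% (D4) and 9.83% (D7) of all genes. Downregulated were 1 at D4 and 3 at D7, beside 10.7% and 9.02% of all genes. Bmp6, the endothelial signal that raises hepcidin in the liver, was at 14.9 and 16.8 CPM in control, 3.69 and 4.65 CPM at D4, and 1.88 and 4.11 CPM at D7 (-1.92 ± 0.36 and -2.41 ± 0.37). Without D4 library a the D4 call was lost (adjusted p = 0.058), and the D7 value was -1.92 without D7 library a and -3.07 without D7 library b, both past the threshold. Bmp2 was at -1.20 ± 0.35 at D7 (adjusted p = 0.038), a call that was lost when any library but control library a was left out (adjusted p from 0.051 to 0.16). Neo1, a co-receptor named after its value was seen, completed the 3 (-1.12 ± 0.09). The iron regulatory proteins differed: Aco1 (IRP1) was at 191 and 243 CPM in control, 115 and 114 CPM at D4, and 102 and 146 CPM at D7 (-0.92 ± 0.19 and -0.80 ± 0.19, adjusted p = 0.011 and 0.022, below 2-fold), while Ireb2 (IRP2) was at -0.09 ± 0.09 and 0.19 ± 0.09 and did not pass. Without control library a at D4 and without D7 library b at D7, Aco1 was downregulated past 2-fold (-1.08 both times). Hamp, which encodes hepcidin, had at most 8 counts in any library and was not tested.

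NRF2 and BACH1 are the transcription factors that activate and repress Hmox1. Nfe2l2, the gene of NRF2, was at 0.01 ± 0.09 and 0.12 ± 0.09 and did not pass. Bach1 was at 34.6 and 37.7 CPM in control, 43.5 and 48.7 CPM at D4, and 71.8 and 63.2 CPM at D7, with log2 fold changes of 0.35 ± 0.11 (adjusted p = 0.0496) and 0.90 ± 0.11 (adjusted p = 0.0024), below 2-fold. Of the 13 tested genes of this axis, 0 were upregulated at either day, beside 11.2% (D4) and 9.83% (D7) of all genes. Downregulated were 2 at D4 and 1 at D7, beside 10.7% and 9.02% of all genes. With no fold limit, 4 were higher and 3 lower at D4, and 3 higher and 2 lower at D7. Without that limit 44.2% and 37.5% of all genes passed in either direction.

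Members of this axis lay on both sides of control at D4. Nqo1, the quinone reductase and a well-known NRF2 target like Hmox1, was at 37.8 and 33.9 CPM in control, 11.7 and 12.2 CPM at D4, and 7.32 and 8.71 CPM at D7 (-1.59 ± 0.14 and -2.16 ± 0.14). Slc7a11, the cystine transporter, was downregulated at D4 (-1.35 ± 0.33, adjusted p = 0.020), a call lost without D4 library a or control library b (adjusted p = 0.092 and 0.079). The following genes were named after their values were seen. Txnrd1, the thioredoxin reductase, was at 74.0 and 76.6 CPM in control and 102 and 100.1 CPM at D4 (0.43 ± 0.09, adjusted p = 0.011, below 2-fold). Maff, a small MAF partner of these factors, was at 7.47 and 10.1 CPM in control and 17.3 CPM in both D4 libraries (0.98 ± 0.18, adjusted p = 0.0064, just below 2-fold), and DESeq2 called it upregulated (1.01). Without control library b or D7 library a it also passed (1.21 and 1.02). Srxn1, sulfiredoxin, was at 0.515 and 0.482 CPM in control and 1.19 and 1.40 CPM at D4 (1.37 ± 0.49, adjusted p = 0.064), and the exact test called it upregulated.

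**Figure D5:**
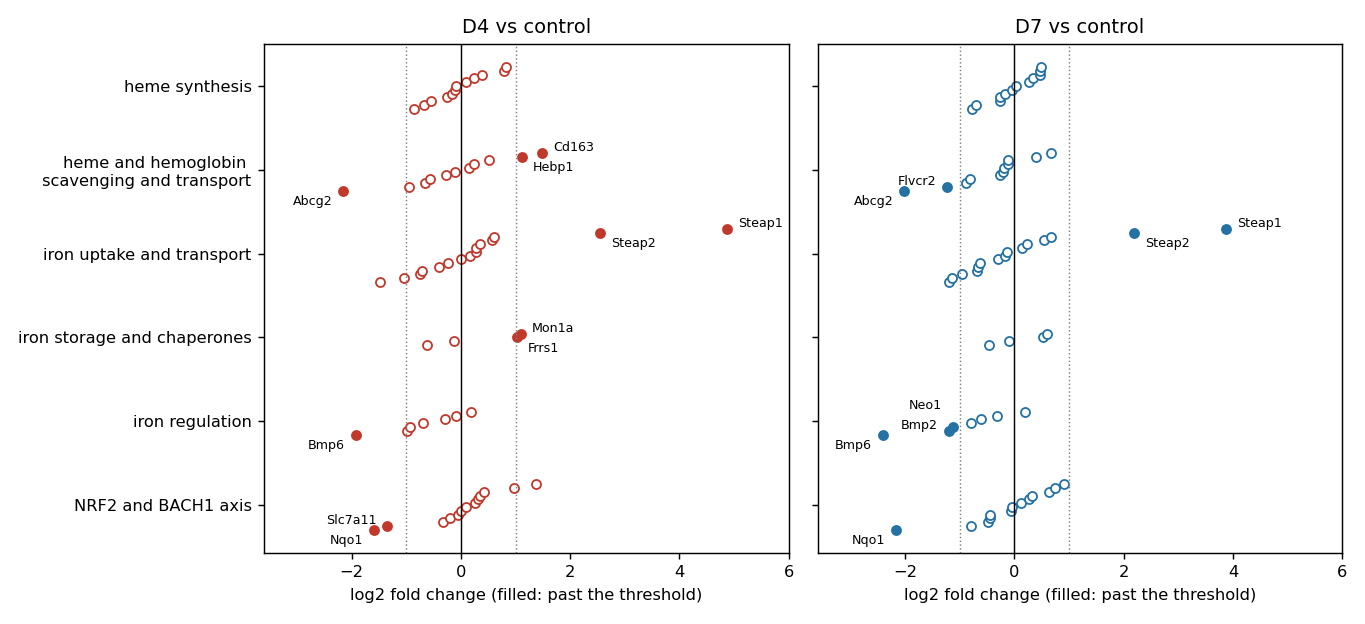
Log2 fold change (horizontal axis) of the 62 other tested heme and iron genes by list at D4 (left, red) and D7 (right, blue), where filled and named points were past the threshold and dotted lines mark a 2-fold change. Steap1 and Steap2 lie farthest to the right at both days, and Abcg2, Bmp6 and Nqo1 lie to the left of -1 at both days.

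Cell type markers showed how far the nerve itself had changed. The 9 Schwann cell markers, against which the tissue label was checked, were all detected, with Ngfr upregulated on each day and 6 markers downregulated on D4 and 4 on D7. The myelin genes Pmp22 and Mbp had log2 fold changes of -5.81 ± 0.36 and -3.81 ± 0.33 at D4. Endothelial markers (5 genes tested, Vwf, Cdh5 and Kdr the most abundant) were 3 downregulated at D4 and 5 at D7 (2 without D7 library a, 5 without D7 library b), and summed to 830 and 1453 CPM in control, 508 and 475 CPM at D4, and 263 and 470 CPM at D7. Adipocyte markers (6 genes, led by Lpl, Adipoq and Plin1) summed to 2713 and 2485 CPM in control, 579 and 288 CPM at D4, and 32.7 and 948 CPM at D7, and 0 of them passed by edgeR or had an unadjusted p below 0.05, while the exact test called 1 at D4. At D7 1 adipocyte marker passed without D7 library a and 6 without D7 library b. Skeletal muscle markers (7 tested, led by Myh1, Acta1 and Tnnt3) summed to between 7.06 and 84.4 CPM, and 1, Myh7, was downregulated at each day. The part of these cell types in the heme and iron genes was not tested.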

How the data were processed

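Total RNA of 6 sciatic nerves was sequenced after ribosomal RNA removal. According to the study's methods and the submitters' processing notes, the authors mapped reads to Rnor_6.0 with HISAT2 2.0.4 and assembled and counted them per gene or lncRNA with StringTie 1.3.0. The deposited tables hold these fragment counts and the authors' FPKM for each library, and 0 columns were left without a sample. The strand setting and the treatment of reads that match several loci are not given in the sources used here.

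Counts were tested with edgeR 4.0.16 in R 4.3.3 (filterByExpr, TMM factors, quasi-likelihood F test, all 6 libraries and 3 groups in 1 fit), separately for mRNA and lncRNA. P-values were adjusted by the Benjamini-Hochberg method within each table, and calls needed an adjusted p below 0.05 and a change of 2-fold or more. The fit was also run on simulated counts with far fewer changed genes than called here, split evenly between rises and falls. That run did not test the normalization of these data. The deposited FPKM were used only for levels within a library and for the ferritin ratio. With 2 libraries per group the precision is limited. Each p-value of the main fit sets a difference between groups against a spread estimated over all 6 libraries, with information shared between genes.

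The genes and lists were chosen with earlier results of these data known. Named were all genes of the list, the 2 largest changes each way past the threshold in each other list and day, a fixed set of well-known heme and iron genes, up to 3 of the most abundant genes of each marker list, called lncRNAs that overlap a gene of the list by at least 1 base, and the 5 genes nearest to Hmox1 (mean of at least 10 CPM, log2(CPM + 1)). Light chain loci, Neo1, Txnrd1, Maff, Srxn1 and the uncalled lncRNAs were named after their values were seen.

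Alternatives were a fit of only the 2 groups compared, a replicate block, DESeq2 1.42.0, edgeR's exact test, no TMM factors, other low-count filters, other fold rules, leaving out each library, and, added after seeing the data, the ferritin light chain loci summed.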

Additional observations from a re-analysis of the deposited data

How the results depend on the processing

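Of the alternatives run on the single genes of the list, 263 kept the direction and the side of the threshold, 6 passed it anew, 12 no longer passed and 5 changed sign. The other fold rules reused the fold changes of the main fit, so they could not change a sign. The 263 also include genes that did not pass in the main fit, where no call could be lost. The sign changes were all in genes that did not pass: Blvrb at D7 (0.24 without TMM factors, 0.14 without D7 library a, from a range of -0.23 to 0.14 over the left-out libraries), Slc11a2 at D4 and D7 (0.11 and 0.12 without TMM factors) and Tfrc at D4 (-0.0042 without D4 library a, from a range of -0.0042 to 0.45). Without TMM factors the median log2 fold change of all genes was 0.25 at D4 and 0.31 at D7, so that upregulated genes were 2430 of 3507 calls at D4 and 2215 of 3145 at D7, against 1706 of 3333 and 1493 of 2863 with them. There Blvra was also called at D4 (1.01), Slc11a1 was called at D7 (1.17) and Fth1 was not (-0.89), and the D7 calls of Flvcr2 (-0.94), Neo1 (-0.83) and Bmp2 (-0.91) ended.

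Of the genes of the list, the 3 calls at D4 became 5 with no fold limit. The 4 calls at D7 became 0 when the 2-fold change itself was tested, and ranged from 1 to 4 over the left-out libraries, with 1 (Ftl1) without control library a and 2 (Fth1 and Ftl1) without control library b. Between D7 and D4 the count of 0 became 3 with DESeq2, 3 with the exact test and 1 with only the 2 groups compared, with no low-count filter and with at least 10 counts in every library, and was 0 to 1 over the left-out libraries. The other heme and iron genes went from 10 calls at D4 to 29 with no fold limit and 5 with the 2-fold change tested, and to between 6 and 12 over the left-out libraries, with 6 without D4 library a. Their 8 calls at D7 became 28 and 5 under the same fold rules. For the lncRNAs at these genes, the 1 call at D4 became 0 with the 2-fold change tested and 0 to 1 over the left-out libraries. The 0 calls at D7 became 2 with DESeq2, 1 with the exact test, 1 without TMM factors, 1 with at least 10 counts in every library and 0 to 1 over the left-out libraries. The cause of these changes was not tested.

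The log2 ratio of Fth1 to Ftl1 FPKM was 4.35 in control, 2.14 at D4 and 1.98 at D7, and 1.36, -0.47 and -0.57 with the light chain loci summed. The ratio by counts per kilobase was not run, because no transcript lengths were used here for mRNA, and the tests on FPKM were not run, because counts were at hand.

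The letters a and b name different rats. The deviations of same-letter libraries from their group means correlated at 0.02 (D4 and control), 0.24 (D7 and control) and -0.19 (D7 and D4), so the letters were not taken to pair the libraries. With the letter as a replicate block, the list kept 3 calls at D4, 4 at D7 and 0 between D7 and D4, and over all genes 3281 passed at D4 and 2827 at D7.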
